A study of Mus musculus with 10 samples.

Results

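Collagen genes were followed in lymphatic endothelial cells (LECs) and neighboring cells of mouse ear skin after loss of Tie1, loss of Tie1 and Tie2, or blocking of Ang2. Genes with a symbol of the form Col, digits, a, digits were taken, with 1 gene of that form set aside and not analysed here, which gave 43 of the 42558 genes joined across the plate tables. All 43 had a count in LEC wells of some plate, 27 had one in all 8 plates, and all 43 had a UMI (a counted RNA molecule) in both droplet libraries.

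Single LECs sorted as CD31+ PDPN+ CD45- CD11b- Ter119- were sequenced from 8 plates, 2 in each of 4 groups. The deleted groups were Prox1CreERT2;Tie1fl/fl and Prox1CreERT2;Tie1fl/fl,Tie2fl/fl mice, in which the Prox1 promoter drives the inducible Cre, and the control groups were Tie1fl/fl and Tie1fl/fl,Tie2fl/fl mice without Cre. Mice of all 4 groups, controls included, received 62.5 µg of 4-hydroxytamoxifen intragastrically on postnatal days 1 to 5, and the cells were taken on postnatal day 28. The first plates of the Tie1fl/fl and Prox1CreERT2;Tie1fl/fl groups came from females and the other 6 plates from males. In the third model, male C57Bl/6j wild-type pups received an Ang2-blocking antibody (Ang2 Ab) or control IgG1 at 20 mg/kg from day 16 to day 21, and CD31+ cells of the ear skin were loaded as 1 droplet (10x) library per treatment. The labels do not say how many mice a plate or a library pools, so p values below measure the spread between plates only, and the 2 droplet libraries allow no test.

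Collagens are triple-helical proteins of the extracellular matrix. Fibrillar types such as I, III and V bear load in the dermis and are made mainly by fibroblasts, whereas type IV collagen forms the sheet-like network of basement membranes, and type XVIII, a multiplexin, sits in basement membranes and releases endostatin from its C-terminal end. Lymphatic capillaries have a thin, discontinuous basement membrane, while collecting vessels and their valves rest on a continuous one.

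Plates held 71309205 to 110741537 counts, and 3026 of 3048 wells had at least 1000 genes. After fibroblast-like and keratinocyte-like wells were removed, 2771 LEC wells remained, and their counts were summed per plate. LEC markers summed to 8596 to 10005 CPM in every plate, CPM being read counts scaled to an equal total per sample. Tie1 reached 2224 and 2860 CPM in the Tie1 floxed plates and 676 and 662 CPM in the Tie1-deleted plates, and 2746 and 2548 against 732 and 450 CPM in the Tie1/-2 pair of groups. Tek, which encodes Tie2, was at 312 and 286 CPM in Tie1/-2 floxed and at 32.7 and 50.3 CPM in Tie1/-2–deleted plates. The log2 fold change of Tie1 was -1.93 with Tie1 deletion (adjusted p = 0.248, edgeR) and -2.16 with Tie1/-2 deletion (adjusted p = 0.00631, edgeR), and that of Tek was -2.84 with Tie1/-2 deletion (adjusted p = 0.00528, edgeR). 1 control plate, Tie1/-2 floxed plate 1, stood apart: 76.3% of its LEC wells held at least 50 CPM of the 8 non-collagen fibroblast markers, against 6.35% to 27.2% in the other 7 plates, and its summed level of these markers was 234 CPM, against 30.8 CPM in the other plate of its group. Log2 fold changes of several genes over all LEC wells, class medians and filtered edgeR counts are therefore given with and without it. The DESeq2 calls, calls with no filter on low counts and counts of genes without overlap between plates are given with it only. So are the direct comparison of the deletions, the ratios of chains and the log2 fold changes by kind of LEC.

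The sequences at the starts of 5 collagen genes are shown because 2 of them share a start region, and the other 3 are fibrillar or short-chain genes with the values that differed most between plates or moved apart from their class. They are RefSeq windows of build GRCm38.p6. Col4a1 and Col4a2 are read in opposite directions from overlapping starts on chromosome 8. The plus strand at chr8:11312801-11312830 is given below, and the capitals mark the annotated first bases, that of Col4a2 at 11312805 on the plus strand and that of Col4a1 at 11312826 on the minus strand. The 22 bases from one start to the other belong to both genes, and counts made there without strand cannot be told apart.
Col4a1 and Col4a2 starts: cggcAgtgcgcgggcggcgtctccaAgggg
The next windows are the 250 bases before the annotated start of Col3a1 (chr1:45311288-45311537, plus strand), Col5a1 (chr2:27886175-27886424, plus strand) and Col8a1 (chr16:57754738-57754987, minus strand). Capitals mark TATAAA in Col3a1, and GGGCGG or its reverse complement in Col5a1 and Col8a1.
Col3a1: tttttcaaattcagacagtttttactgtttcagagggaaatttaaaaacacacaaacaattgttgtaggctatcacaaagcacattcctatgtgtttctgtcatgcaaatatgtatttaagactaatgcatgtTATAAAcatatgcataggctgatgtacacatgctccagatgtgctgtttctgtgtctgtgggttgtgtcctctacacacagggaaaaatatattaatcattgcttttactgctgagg
Col5a1: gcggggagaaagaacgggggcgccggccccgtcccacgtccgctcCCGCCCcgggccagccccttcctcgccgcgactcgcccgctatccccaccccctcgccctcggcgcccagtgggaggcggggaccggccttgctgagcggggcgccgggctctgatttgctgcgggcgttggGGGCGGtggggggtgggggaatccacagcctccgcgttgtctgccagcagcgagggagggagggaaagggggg
Col8a1: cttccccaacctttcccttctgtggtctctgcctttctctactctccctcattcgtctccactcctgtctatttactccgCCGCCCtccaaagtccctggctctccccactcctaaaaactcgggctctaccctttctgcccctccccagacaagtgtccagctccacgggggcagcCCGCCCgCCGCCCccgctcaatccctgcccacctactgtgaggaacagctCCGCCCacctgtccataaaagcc
Of the 43 symbols, 34 matched the table, with 37 windows. GGGCGG on either strand was in 21 of the 37 windows and in 32.7% of all 32851 windows. TATAAA was in 5 of the 37 and in 12.4% of all, CCAAT was in 13 of the 37 and in 33.8% of all, and the forkhead core GTAAACA was in 1 of the 37, that of Col6a1, and in 3.17% of all. These matches describe letters in a window and were not tied to binding.

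To determine which collagens the LECs of ear skin expressed, levels in the 4 control plates were divided by exon length. Col18a1 came first with 264 CPM per kb and made up 45.1% of the summed collagen level per kb. Col4a1 followed with 159 and Col4a2 with 112 CPM per kb, and these 3 genes held 91.6% of the collagen level. The next genes were far lower: Col5a2, a chain of the fibril-nucleating type V collagen, with 12.4 CPM per kb, and Col4a5, a further type IV chain, with 10.6. Col3a1 (5.35 CPM per kb), Col1a1 (4.79), Col5a1 (2.47), Col1a2 (2.20), Col6a1 (2.04) and Col8a1 (1.67) followed, and the other 32 collagen genes were under 10 CPM in every group of plates. Over the 4 control plates Col18a1 ranged from 234 to 304, Col4a1 from 138 to 202 and Col4a2 from 99.9 to 129 CPM per kb, so these 3 kept their order in every plate range. Below them neighbors in the order overlapped, as Col5a2 at 7.49 to 16.2 did with Col4a5 at 10.1 to 11.1, and Col3a1 at 1.84 to 11.5 with Col1a1 at 1.96 to 9.25 CPM per kb.

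Cell types in the droplet libraries were set apart without any collagen gene, which gave 1378 LECs and 1252 blood vascular endothelial cells (BECs) with IgG, 790 and 1254 with Ang2 Ab, and smaller mural, fibroblast-like, cartilage-like, keratinocyte-like and Schwann or melanocyte-like clusters. A further 430 cells with IgG and 538 with Ang2 Ab were left unnamed. The 2 libraries shared 5 cell barcodes. The only collagen genes with their highest level in LECs in both libraries were Col18a1 and Col4a5. With IgG, Col18a1 was at 624 CPM (UMIs scaled to an equal total per cell type and library) in LECs, 230 in mural cells, 135 in BECs and 105 in fibroblast-like cells, and Col4a5 was at 66.7 in LECs, 34.1 in keratinocyte-like cells and under 14 elsewhere. Both genes kept that place under all 4 alternative clusterings and cell filters.

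Type IV chains Col4a1 and Col4a2, the main partners of the basement membrane network, were shared among vascular cells. Col4a1 was at 4142 CPM in mural cells, 2726 in BECs, 1323 in LECs and 952 in fibroblast-like cells with IgG. Col4a2 followed the same order in these 4 types, with 2172, 1593, 671 and 554. LECs were thus at 139% of the fibroblast-like level for Col4a1 and at 121% for Col4a2. Within the BECs, the capillary-like subset was at 5131 CPM of Col4a1 and 2838 of Col4a2 with IgG, above mural cells. The 17 Schwann or melanocyte-like cells with IgG were at 1610 and 1170 CPM, above LECs.

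**Figure D1:**
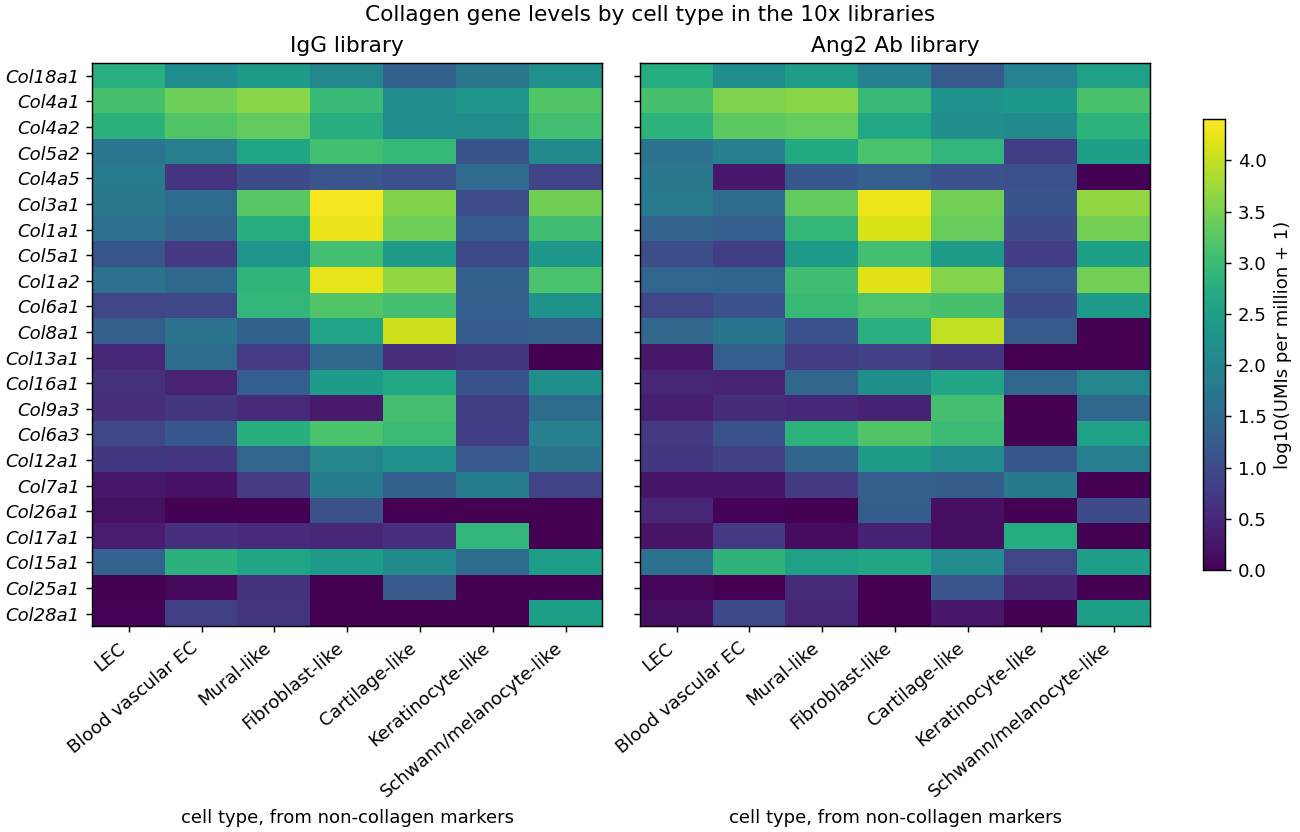
Level of the named collagen genes by cell type in the IgG and Ang2 Ab droplet libraries, with color showing log10 of the CPM plus 1. Col18a1 and Col4a5 are highest in LECs, and Col1a1, Col1a2 and Col3a1 in fibroblast-like cells. Col4a1 and Col4a2 are highest in mural cells when BECs are taken as a whole.

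Fibrillar collagens were present in LECs at a small fraction of their level in fibroblast-like cells. Col3a1, of the pliable fibrils of skin and vessels, was at 53.6 CPM in LECs and at 22187 in the 47 fibroblast-like cells with IgG, and Col1a1 was at 40.3 and 18458. The LEC level was 0.218% of the fibroblast-like level for Col1a1, 0.257% for Col1a2 and 0.242% for Col3a1. The 8 non-collagen fibroblast markers, measured the same way, had a median of 0.193% with a range of 0.115% to 2.41%. The type I and type III genes lay within that range. Whether LECs lack each marker was not tested, and Fbln1, the highest, was at 3.60 CPM in LECs and 0.566 in BECs. BECs had 35.0 CPM of Col3a1 and 24.5 of Col1a1, and keratinocyte-like cells 9.93 and 18.5. The part of fibroblast RNA in the LEC values of these 3 genes was not tested.

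Other collagen genes exceeded that range. Relative to fibroblast-like cells with IgG, LECs held 4.48% of the level of Col5a2, 6.08% of Col8a1, a short-chain collagen, and 8.86% of Col15a1, a multiplexin. Col5a1 was at 1.16% and Col6a3, of the beaded type VI filaments, at 0.546%, above the marker median of 0.193% but within the marker range. Of the markers, only Fbln1 (3.60 CPM in LECs and 149 in fibroblast-like cells) and Pi16 (3.16 and 190) were at higher percentages. Several of these collagen genes had a stronger source elsewhere, since Col8a1 was at 12030 CPM in cartilage-like cells and Col15a1 at 662 in BECs. The cartilage-like cluster also had the highest level of Col2a1, at 2440, and the keratinocyte-like cluster that of Col17a1, at 795, a hemidesmosomal transmembrane collagen.

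**Figure D2:**
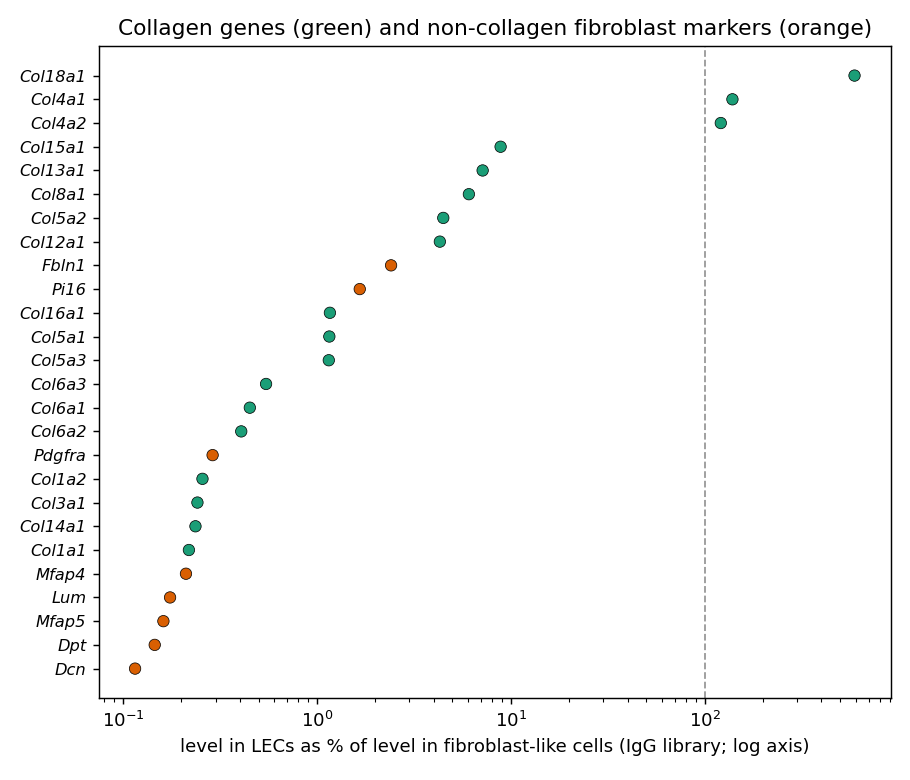
Level in LECs as a percentage of the level in fibroblast-like cells in the IgG library, on a log axis, for 18 collagen genes with at least 20 UMIs (green) and 8 non-collagen fibroblast markers (orange), with the dashed line at equal levels. Col1a1 (0.218%), Col1a2 (0.257%) and Col3a1 (0.242%) lie among the markers, and Col4a1, Col4a2 and Col18a1 lie beyond the line.

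In the plates the percentages differed from those in droplets. They were taken over LEC wells of all 8 plates, deleted groups included, whereas the droplet percentages came from the IgG library alone. LEC wells held 2.73% of the Col1a1 level of fibroblast-like wells, 2.07% of Col1a2, 3.50% of Col8a1, 3.61% of Col15a1 and 10.0% of Col3a1, but 53.8% of Col5a1 and 49.7% of Col5a2. Col8a1 was thus below Col3a1 and both type V genes, which it exceeded in the droplets. Col4a1, Col18a1 and Col4a2 were at 116%, 117% and 130% of the fibroblast-like wells, and Col4a5 was at 180%. The fibroblast-like wells held 1574 CPM of Col18a1, against 1849 in LEC wells and 105 in fibroblast-like droplet cells with IgG. They also held 226 CPM of Col2a1 and 126 of Col9a1, against 8.42 and 4.21 in fibroblast-like droplet cells with IgG. Cartilage-like droplet cells with IgG had 2440 and 1399 CPM of these genes. The 2 sets of percentages thus have unlike samples and unlike denominators. The part of cartilage-like RNA or of LEC RNA in the fibroblast-like wells was not tested. Counts of Col5a1, Col8a1 and Col1a1 sat in few wells. In a plate, the 5% of LEC wells with the most counts of a gene held 92.0% to 100% of all Col5a1 counts. For Col8a1 they held 71.1% to 100% and for Col1a1 44.1% to 100%, against 15.8% to 25.2% for Col18a1.

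Counts summed over all LEC wells cannot tell fewer cells of a type from less RNA per cell in a lower collagen level. Values within kinds of LEC are given further below. No collagen gene was called with deletion of Tie1 alone. In edgeR's quasi-likelihood test, 0 of the 38 collagen genes that passed the filter on low counts were called at an adjusted p under 0.05, and 0% of all 19946 genes tested were called. At an unadjusted p under 0.05 there were 2 collagen genes, Col17a1 and Col6a5, with 4.27% of all genes at that level, and DESeq2 called 0, against 0.872% of all genes. With no filter on low counts edgeR called 2 of 43, Col3a1 and Col6a5, against 0.881%. The log2 fold change was positive for 22 of the 38, with a median of 0.12, against a median of 0.00 over all genes.

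Of the 3 abundant basement membrane genes, only Col4a2 separated the Tie1 groups. Col18a1 was at 1679 and 2134 CPM in floxed and at 1822 and 2405 CPM in deleted plates, and Col4a1 was at 1120 and 1507 against 1282 and 1593 CPM. Both sets of plates overlapped. Col4a2 was at 749 and 853 CPM in floxed and at 966 and 1310 CPM in deleted plates, which did not overlap, with a log2 fold change of 0.50 ± 0.23 (SE, unadjusted p = 0.0599, adjusted p = 1, edgeR). Of the 38 collagen genes, 4 were higher in both deleted plates than in both floxed plates (Col4a2, Col16a1, Col17a1 and Col26a1), against 15.4% of all genes, and 2 were lower (Col8a2 and Col22a1), against 13.5%.

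Fibrillar genes varied widely within the Tie1 groups. Col3a1 was at 18.04 and 40.4 CPM in floxed and at 36.1 and 103 CPM in deleted plates, a log2 fold change of 1.24 ± 0.65 (SE, adjusted p = 1, edgeR). Col1a1 (22.1 and 12.9 against 9.86 and 20.9 CPM), Col5a1 (12.3 and 20.4 against 8.15 and 17.8 CPM) and Col5a2 (95.4 and 155 against 73.3 and 129 CPM) overlapped between floxed and deleted plates. Col17a1 was low throughout, at 0.0535 and 0.133 CPM in floxed and at 0.487 and 2.98 CPM in deleted plates.

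After combined deletion of Tie1 and Tie2 most collagen genes tested had lower values, and the number called went from 0 to 12 with the tool and the filter on low counts. The log2 fold change was negative for 30 of the 38 tested, with a median of -1.86, against 0.00 over all genes. Placing Col9a1 and Col9a2, which had no count in 1 of the groups, at the bound that 3 counts allow left the median at -1.86. By edgeR's quasi-likelihood test with the filter 0 of 38 were called, while 1.21% of all genes were. At an unadjusted p under 0.05 there were 12 collagen genes against 10.7% of all genes. DESeq2 called 8 collagen genes, all lower, against 5.19% of all genes in either direction and 3.54% lower: Col1a1, Col5a1, Col5a2, Col6a2, Col6a5, Col8a1, Col13a1 and Col14a1. With no filter on low counts edgeR called 12 of 43, against 3.92%. In 18 of the 38 both deleted plates lay under both floxed plates, against 20.8% of all genes, and in 3 (Col4a1, Col4a2 and Col15a1) they lay above, against 16.6%.

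Without Tie1/-2 floxed plate 1, the plate with the most fibroblast marker counts, the differences were smaller. Of 39 collagen genes tested, 15 had a positive log2 fold change and the median was -0.67, with 0 called by edgeR, against 0.409% of all genes, and 7 at an unadjusted p under 0.05, against 6.71%. When only LEC wells under 50 CPM of fibroblast markers were kept, the median of 37 genes was -1.14, with 0 called by edgeR, against 0.939% of all genes, and 9 at an unadjusted p under 0.05, against 10.1%.

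The 4 lowest unadjusted p values with Tie1/-2 deletion were those of Col8a1, Col5a1, Col1a1 and Col5a2. Col8a1 was at 19.4 and 9.04 CPM in floxed and at 0.063 and 0.347 CPM in deleted plates. Both deleted plates were under every other plate, and the log2 fold change was -6.05 ± 1.22 (SE, unadjusted p = 0.00106, adjusted p = 0.0711, edgeR). Without floxed plate 1 it was -5.42, and in wells under the fibroblast marker limit -4.84. Col5a1, the partner chain of Col5a2, was at 23.4 and 27.8 CPM in floxed and at 3.84 and 0.730 CPM in deleted plates, a log2 fold change of -3.49 ± 0.81 (SE, adjusted p = 0.119, edgeR), and was at -3.58 without floxed plate 1. Col5a2 was at 152 and 71.9 against 47.4 and 29.1 CPM, with a log2 fold change of -1.54 ± 0.47 (SE, adjusted p = 0.266, edgeR) and of -0.90 without that plate. With the layout of the plate table as a term, which same-numbered plates of a strain shared, Col5a2 was called (-1.49 ± 0.20, SE, adjusted p = 0.0234, edgeR), as 1 collagen gene of 38 against 1.23% of all genes. DESeq2 called Col8a1, Col5a1, Col1a1 and Col5a2.

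Among the type I and type VI genes, Col1a2 and Col6a1 rested on that plate. Col1a1 was at 60.7 and 30.0 CPM in floxed and at 3.70 and 11.3 CPM in deleted plates, which did not overlap (log2 fold change -2.59 ± 0.68, SE, adjusted p = 0.184, edgeR, and -2.01 without floxed plate 1). Col1a2, the second type I chain, was at 71.8 and 8.60 against 3.84 and 13.8 CPM, so that its groups overlapped, and its log2 fold change went from -2.18 to 0.03 when that plate was left out. Col6a1 behaved alike, with 24.9 and 3.13 against 0.394 and 3.97 CPM and a change from -2.67 to -0.53. Col3a1 was not among the lower genes, at 113 and 38.5 CPM in floxed and at 110 and 134 CPM in deleted plates, with a log2 fold change of 0.69 ± 0.64 (SE, adjusted p = 0.814, edgeR), and of 1.66 without floxed plate 1.

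Markers of other cells moved with these groups. In the Tie1/-2 plates, cartilage, mural, keratinocyte, BEC and LEC markers did not overlap between floxed and deleted plates, and fibroblast markers did. Cartilage markers summed to 419 to 473 CPM against 7.65 to 12.0 CPM, of which the matrix protein gene Comp made up 410 to 461 and 5.50 to 9.01 CPM, and mural markers summed to 29.3 to 73.2 against 151 to 174 CPM, of which Kcnj8 made up 9.11 to 17.5 and 133 to 152 CPM. Without Comp the cartilage markers summed to 8.97 to 12.7 against 2.15 to 2.99 CPM, and without Kcnj8 the mural markers summed to 11.8 to 64.0 against 18.3 to 21.8 CPM. Keratinocyte markers summed to 34.9 to 59.5 against 11.7 to 12.6 CPM, BEC markers to 865 to 1063 against 1294 to 1408 CPM and LEC markers to 9773 to 10005 against 8858 to 8916 CPM. Fibroblast markers were at 30.8 to 234 CPM in the floxed and at 31.8 to 38.7 CPM in the deleted plates. In the Tie1 groups fibroblast markers overlapped, at 33.7 to 49.1 CPM in floxed and 42.0 to 42.7 CPM in deleted plates, and mural markers did not, at 10.9 to 20.6 against 53.7 to 59.0 CPM, and without Kcnj8 at 9.50 to 15.5 against 24.4 to 35.9 CPM. The part of these cells or genes in the collagen values was not tested.

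Among basement membrane genes, Col4a1 and Col4a2 had higher values in both deleted plates. Col18a1 was at 1960 and 1639 CPM in Tie1/-2 floxed and at 2105 and 1332 CPM in deleted plates, which overlapped. Col4a1 was at 1099 and 1032 against 1332 and 1106 CPM, and Col4a2 at 709 and 661 against 1330 and 922 CPM. The log2 fold change of Col4a2 was 0.72 ± 0.23 (SE, unadjusted p = 0.0136, adjusted p = 0.297, edgeR) and 0.78 without floxed plate 1, and that of Col4a1 was 0.20 ± 0.21 (SE, adjusted p = 0.845, edgeR). Col4a5 overlapped, with 72.3 and 74.7 against 94.8 and 69.7 CPM. As a share of all collagen counts per kb, type IV genes took 43.6% to 48.9% in floxed and 55.2% to 58.4% in deleted plates.

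By class, 8 of 10 fibrillar genes tested, all 4 type VI genes tested, all 3 short-chain genes, 7 of 8 fibril-associated (FACIT) genes tested and all 3 transmembrane genes had a negative log2 fold change with Tie1/-2 deletion. Their medians were -2.46, -3.26, -1.98, -1.05 and -2.47. In the 6 type IV genes the median was -0.13, with 3 positive. With Tie1 deletion the same classes had medians of -0.14, -0.54, -0.18, 0.25 and 2.56, and the type IV genes -0.22. Without floxed plate 1 the 5 classes had medians of -0.90, -1.51, -2.08, -0.81 and -2.40 with Tie1/-2 deletion, with 7 of 11, 3 of 4, 2 of 3, 6 of 8 and 3 of 3 negative, and the type IV genes 0.20, with 4 of 6 positive. By edgeR with the filter none of these classes held a called gene in either contrast. The 8 genes that DESeq2 called with Tie1/-2 deletion were fibrillar (Col1a1, Col5a1 and Col5a2), type VI (Col6a2 and Col6a5), short-chain (Col8a1), FACIT (Col14a1) and transmembrane (Col13a1). 5 members did not pass the filter, namely Col2a1, Col6a4, Col6a6, Col19a1 and Col28a1.

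**Figure D3:**
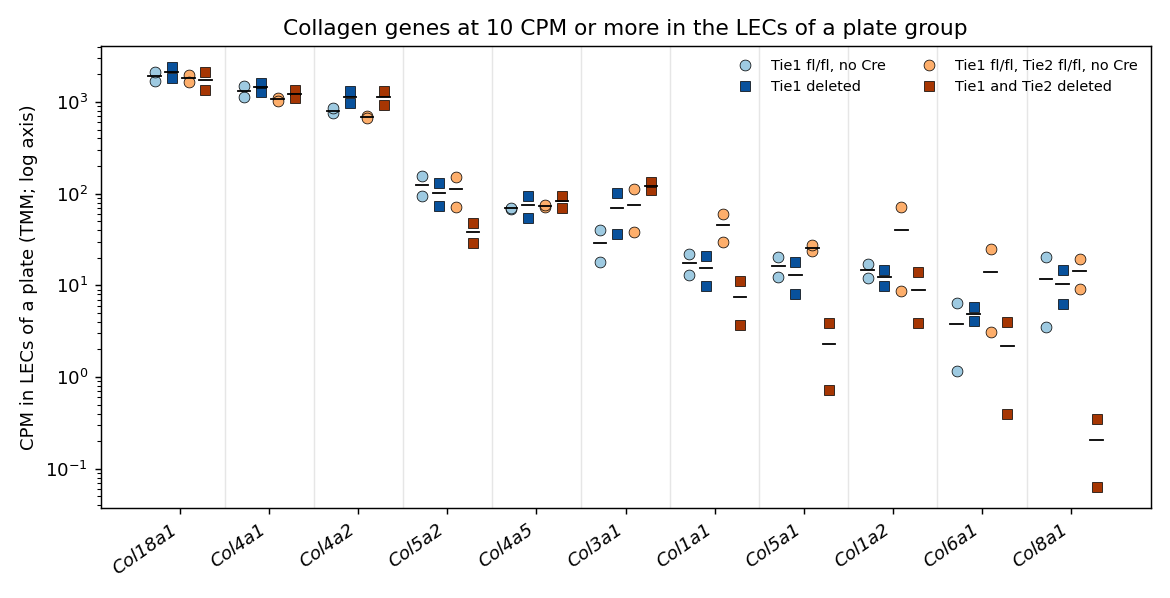
CPM in LEC wells of each of the 8 plates, on a log axis, for the 11 collagen genes with at least 10 CPM in a group, with 1 point per plate and a short line at each group's mean. In the Tie1/-2 groups Col8a1 and Col5a1 are lower in both deleted plates than in both floxed plates, and Col18a1 overlaps.

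Low-level members of the remaining classes were uneven between plates. Col13a1, a transmembrane collagen, was at 5.42 and 0 CPM in Tie1 floxed, 1.19 and 6.47 in Tie1-deleted, 8.15 and 2.34 in Tie1/-2 floxed and 0 and 0.0365 in Tie1/-2–deleted plates. Col15a1 was at 0.203 and 0, 0.034 and 0.562, 0.369 and 0.0822, and 3.62 and 0.958 CPM in the same order, so it was highest in both Tie1/-2–deleted plates (log2 fold change 3.34 ± 1.95, SE, adjusted p = 0.624, edgeR). Of the FACIT genes, Col16a1 was at 0.877 and 2.90 CPM in Tie1 floxed and at 3.01 and 6.91 CPM in Tie1-deleted plates. Col12a1 ranged from 0.0182 to 9.40 CPM and Col9a3 from 0 to 2.88 CPM over the 8 plates. Col7a1, of the anchoring fibrils under the epidermis, ranged from 0 to 4.19 CPM and Col26a1 from 0.516 to 4.85 CPM over the 8 plates.

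The effects of the 2 deletions were compared directly, as the Tie1/-2 effect minus the Tie1 effect. No collagen gene was called by edgeR, against 0.135% of all genes, and 9 of 38 had an unadjusted p under 0.05, against 7.39% of all genes, while DESeq2 called 2, Col8a1 and Col17a1, against 2.18%, and edgeR with no filter called 7 of 43, against 2.06%. Col8a1 differed by -5.87 (adjusted p = 0.332, edgeR) and Col17a1 by -6.66 (adjusted p = 0.380, edgeR). When both deletions were averaged, 0 of 38 were called by edgeR, against 0.963% of all genes, with 8 at an unadjusted p under 0.05 against 9.91%, 5 by DESeq2 against 4.46%, 1 (Col5a2) with table layout as a term against 0.968% and 9 of 43 by edgeR with no filter against 3.56%. Col4a2 was higher in all 4 deleted plates than in its own floxed plates, and its average log2 fold change was 0.61 ± 0.16 (SE, unadjusted p = 0.00534, adjusted p = 0.203, edgeR).

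Pairs of chains were compared within a plate, since a ratio within a plate does not depend on its scaling. These ratios were chosen after their values were seen. Col4a2 per kb divided by Col4a1 per kb was 0.754 and 0.638 in Tie1 floxed, 0.849 and 0.927 in Tie1-deleted, 0.727 and 0.723 in Tie1/-2 floxed, and 1.13 and 0.940 in Tie1/-2–deleted plates. All 4 deleted plates were above all 4 floxed plates. The mean log2 difference within strains was 0.43, and an exact two-sided permutation test of plates within strain gave p = 0.0556, the smallest that its 36 arrangements allow (adjusted over 10 ratio tests, 0.111). With 2 plates a group the test cannot give a p under 0.05. The 10 tests cover only the ratios chosen, in different sets of wells. The p values of these ratios, here and below, thus do not correct for that choice and only describe the separation of the plates.

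The Col4a2 to Col4a1 ratio was also compared by kind of LEC. In capillary-like wells the log2 difference was 0.42 (exact permutation p = 0.0556), in valve-like wells 0.37 (exact permutation p = 0.111) and in collector-like wells 0.08 (exact permutation p = 0.778). In wells under the fibroblast marker limit it was 0.46 (exact permutation p = 0.0556). Col3a1 per kb divided by Col1a1 per kb was 0.546 and 2.102 in Tie1 floxed, 2.45 and 3.29 in Tie1-deleted, 1.24 and 0.858 in Tie1/-2 floxed and 19.8 and 7.94 in Tie1/-2–deleted plates, again without overlap. Summed mural markers were also higher in both deleted groups, without Kcnj8 in the Tie1 groups alone, and their part in this ratio was not tested. Its log2 difference was 2.50 (exact permutation p = 0.0556, adjusted 0.111), and in wells under the marker limit 2.33 with an exact permutation p of 0.111.

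**Figure D4:**
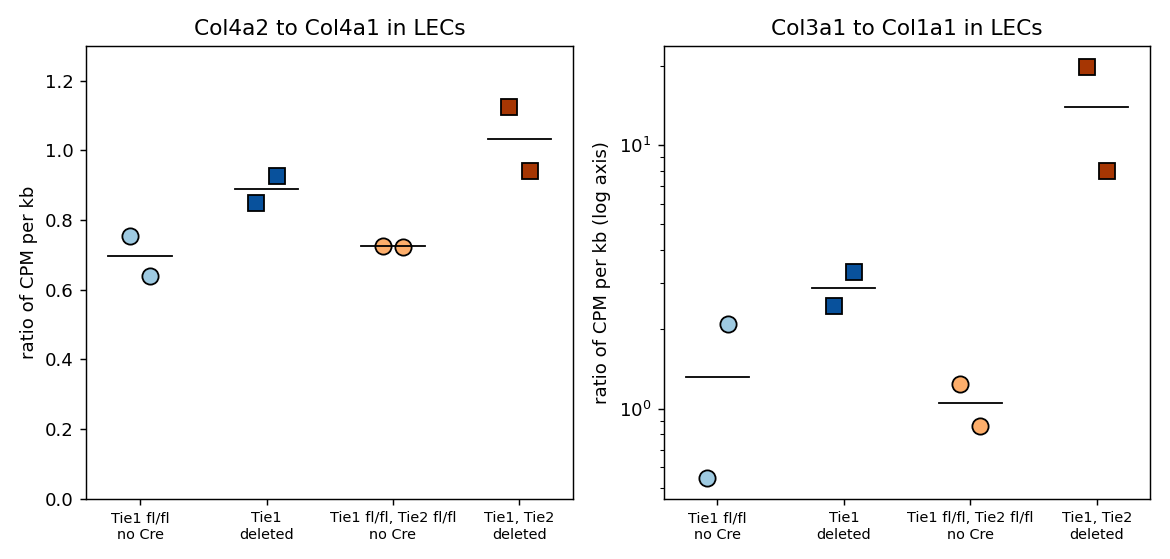
Ratio of Col4a2 to Col4a1 (left, linear axis) and of Col3a1 to Col1a1 (right, log axis) per kb in LEC wells, by group, with 1 point per plate and a line at each group's mean. All 4 deleted plates are above all 4 floxed plates for both ratios.

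Different kinds of LEC differed in their collagens. In control plates Col18a1 averaged 2082 ± 264 CPM in capillary-like, 2044 ± 299 CPM in collector-like and 941 ± 217 CPM in valve-like LECs (SD, n = 4). Col4a1 averaged 1333, 773 and 1051 CPM in the same order, and Col4a5 56.7, 84.0 and 125 CPM. Col5a1 was highest in collector-like LECs at 45.4 CPM, and at 12.2 in capillary-like and 21.2 CPM in valve-like LECs. These are descriptions, since the classes came from clusters of the same wells.

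Within these classes no collagen gene was called in either deletion by edgeR, of 34 tested in capillary-like, 22 in collector-like and 25 in valve-like LECs. At an unadjusted p under 0.05 there were 2, 0 and 1 with Tie1 deletion, against 4.8%, 2.39% and 5.22% of all genes, and 9, 3 and 12 with Tie1/-2 deletion, against 9.88%, 12.9% and 7.83%. Over all genes 0% were called with Tie1 deletion, and 0.646%, 0.41% and 0.154% with Tie1/-2 deletion. With no filter on low counts 1 and 6 collagen genes were called in capillary-like LECs, against 0.643% and 2.87% of all genes with Tie1 and Tie1/-2 deletion, and 4 in valve-like LECs with Tie1/-2 deletion, against 1.13%. In collector-like LECs the count of wells was low, with 9 and 11 wells in the Tie1/-2–deleted plates against 64 and 54 in the floxed plates.

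In valve-like LECs Col5a1 and Col8a1 were near 0 in both Tie1/-2–deleted plates, so the size of their fold changes rests on a few counts. Col5a1 was at 6.21 and 20.4 CPM in Tie1/-2 floxed and at 0 and 0.0912 CPM in deleted plates (log2 fold change -7.80, adjusted p = 0.153, edgeR), and Col8a1 was at 56.5 and 12.0 against 0.0815 and 0.228 CPM (log2 fold change -7.71, adjusted p = 0.226, edgeR). In the Tie1 groups Col5a1 overlapped, with 23.5 and 34.7 against 6.11 and 36.4 CPM. Capillary-like LECs showed Col5a2 at 179 and 88.1 CPM in Tie1/-2 floxed and at 46.5 and 34.7 CPM in deleted plates (log2 fold change -1.75, adjusted p = 0.162, edgeR). With Tie1/-2 deletion the log2 fold changes of Col8a1, Col5a1 and Col1a1 in capillary-like LECs were -5.38, -2.68 and -2.05 (adjusted p = 0.344, 0.409 and 0.235, edgeR). Col3a1 in capillary-like LECs was at 19.5 and 43.2 CPM in Tie1 floxed, 45.0 and 154 in Tie1-deleted, 80.5 and 59.3 in Tie1/-2 floxed and 133 and 154 CPM in Tie1/-2–deleted plates, so that deleted plates were above floxed plates of their strain.

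Next, collagen levels in LECs were compared between Ang2 Ab and IgG, with 1 library per treatment and therefore no test. Intervals are 95% intervals of the UMI count and cover counting error only. Of 15 collagen genes with at least 100 UMIs in LECs of both libraries together, 1 was at least 1.5-fold higher and 3 were at least 1.5-fold lower, and over 10840 genes 3.41% were higher and 3.94% lower. The median log2 ratio of the 15 was -0.17, and that of all genes was 0.00.

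Col15a1 was the higher gene, at 22.9 CPM with IgG and 43.3 with Ang2 Ab, a ratio of 1.89 (1.65 to 2.16). The 3 lower genes were Col1a1, at 40.3 and 23.4 CPM with a ratio of 0.581 (0.500 to 0.674), Col1a2, at 44.9 and 26.3 with a ratio of 0.585 (0.507 to 0.673), and Col6a3, at 7.80 and 4.33 with a ratio of 0.554 (0.385 to 0.784). When the 5% of cells with the highest Scrublet (doublet) scores were left out, these 3 were at 0.801, 0.805 and 0.896, none was past the lower fold, against 3.66% of all genes, and Col15a1 (2.19) and Col3a1 (1.58) were past the upper fold, against 3.56%. The summed fibroblast markers in LECs were 27.7 CPM with IgG and 20.0 with Ang2 Ab. The basement membrane genes stayed within 1.5-fold: Col4a1 was at 1323 and 1309 (ratio 0.989, 0.968 to 1.01), Col4a2 at 671 and 700 (ratio 1.04, 1.01 to 1.07) and Col18a1 at 624 and 537 CPM (ratio 0.862, 0.834 to 0.891). The ratio of Col3a1 was 1.19 (1.07 to 1.32), that of Col8a1 1.34 (1.15 to 1.57) and that of Col5a1 0.698 (0.547 to 0.883).

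**Figure D5:**
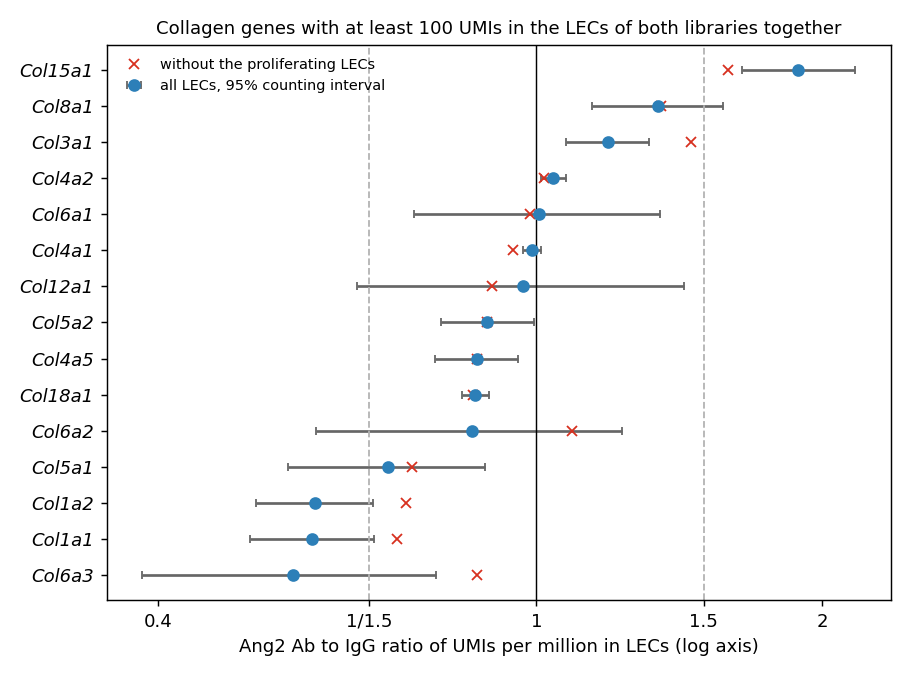
Ratio of Ang2 Ab to IgG level in LECs, on a log axis, for the 15 collagen genes with at least 100 UMIs, with bars for the 95% counting interval, dashed lines at 1.5-fold and crosses for the ratio without the proliferating LECs. Col15a1 is past the upper line both ways, and Col1a1, Col1a2 and Col6a3 are past the lower line only with the proliferating LECs included.

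A small proliferating cluster of LECs carried much of these counts. Its 70 cells with IgG held 215 of the 739 Col1a1 UMIs of all LECs, 303 of the 983 of Col3a1 and 193 of the 420 of Col15a1, and its 38 cells with Ang2 Ab held 229 of the 430 Col15a1 UMIs and 25 of those of Col1a1. The fibroblast marker Dcn moved with them, with 54 of its 192 UMIs in this cluster with IgG and 19 of its 84 with Ang2 Ab, and its part in the collagen counts was not tested. Without this cluster, an alternative added after seeing the data, only Col15a1 remained past the fold, at 1.59 (1.31 to 1.93), against 3.48% of all genes past the upper and 3.1% past the lower fold, and Col1a1, Col1a2 and Col6a3 were at 0.713, 0.729 and 0.865. Col3a1 was then at 1.46. In capillary-like LECs Col15a1 was at 1.71 and Col3a1 at 1.57 (1.39 to 1.77), of 12 measured collagen genes, against 3.59% of all genes past the upper fold, and none was past the lower fold, against 4.05%. Valve-like LECs, of 10 measured, had Col8a1 at 1.87 (1.47 to 2.37), Col1a1 at 0.599 and Col5a1 at 0.538, against 2.26% of all genes past the upper and 2.28% past the lower fold.

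The ratio of Col4a2 to Col4a1 UMIs in LECs was 0.507 (0.496 to 0.518) with IgG and 0.535 (0.519 to 0.550) with Ang2 Ab. That of Col3a1 to Col1a1 was 1.33 (1.21 to 1.47) and 2.72 (2.34 to 3.18), while it was 1.20 and 1.3001 in fibroblast-like cells and 3.09 and 2.60 in mural cells.

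Other cell types also differed in collagen genes between the 2 droplet libraries, as values without a test. In BECs, Col4a1 was at 2726 CPM with IgG and 3581 with Ang2 Ab, a ratio of 1.31 (1.29 to 1.33), and Col4a2 had a ratio of 1.24 (1.22 to 1.26). Of 17 collagen genes measured in BECs, 3, Col6a1 (1.64, 1.25 to 2.16), Col6a2 (1.68, 1.24 to 2.28) and Col12a1 (1.69, 1.13 to 2.53) were at least 1.5-fold higher, against 1.63% of all genes, and Col13a1 (0.559, 0.472 to 0.662) was at least 1.5-fold lower, against 1.87%. In fibroblast-like cells, of 19 measured, Col12a1 (2.46, 1.89 to 3.21), Col8a1 (1.86, 1.61 to 2.17) and Col15a1 (1.56, 1.31 to 1.86) were at least 1.5-fold higher, against 6.71% of all genes, and Col16a1 (0.576, 0.453 to 0.727) was lower, against 6.43%, from 47 and 40 cells. None of 15 measured was past the fold in mural cells, against 4.92% of all genes.

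Enzymes that build and process collagen were followed as a list of 33 genes, of which 33 were tested in LECs, and collagen receptors as a list of 11, of which 10 were tested. With Tie1 deletion none was called in either list. The lowest unadjusted p values were those of Loxl4, a lysyl oxidase, at 0.952 and 0.706 against 10.3 and 15.5 CPM (log2 fold change 3.95 ± 0.93, SE, adjusted p = 0.894, edgeR), Tll1 and P3h3 (-0.75) in the first list, and of Itga11 (4.25), Lair1 (7.52) and Adgrg1 (-0.79) in the second. With Tie1/-2 deletion Tll1 alone was called, 1 of 33 in the first list and 0 of 10 in the second. The share of all genes called in that fit is given above. The next lowest p values were those of Pcolce (-3.79) and Lox, which had no count in either deleted plate, and of Itga11, Mrc2 (-6.12) and Ddr1 (-0.98).

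Tll1, a procollagen C-proteinase that trims fibrillar collagen before it assembles, was at 50.4 and 32.2 CPM in Tie1 floxed, 21.9 and 17.5 in Tie1-deleted, 56.8 and 45.2 in Tie1/-2 floxed and 0.583 and 0.411 CPM in Tie1/-2–deleted plates. Its log2 fold change was -6.69 ± 0.46 with Tie1/-2 deletion (SE, adjusted p = 0.000972, edgeR) and -1.07 ± 0.36 with Tie1 deletion (SE, adjusted p = 1, edgeR), and the 2 differed by -5.61 ± 0.55 (SE, adjusted p = 0.0134, edgeR). Both deleted plates of each strain were under both of its floxed plates. It fell in capillary-like (-6.50, adjusted p = 0.00285, edgeR) and collector-like LECs (-8.58, adjusted p = 0.0228, edgeR), the latter with few wells in the deleted plates, as given above. With Ang2 Ab Tll1 was at 30.0 CPM with IgG and 5.83 CPM with Ang2 Ab, a ratio of 0.194 (0.146 to 0.255). The other gene of the synthesis list past the fold in LECs was P4ha2, a prolyl hydroxylase subunit, at 2.64 (1.91 to 3.66), and Itga1, a collagen-binding integrin chain, was at 1.79 (1.64 to 1.96). Over 10840 genes 3.41% were past the upper and 3.94% past the lower fold.

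Sparc, a matrix protein that binds collagen, was called in collector-like LECs with Tie1/-2 deletion, at 738 and 745 CPM in floxed against 81.7 and 50.5 CPM in deleted plates (log2 fold change -3.41, adjusted p = 0.00606, edgeR). The deleted plates held few collector-like wells, as given above. In capillary-like LECs Sparc was higher in both deleted plates, at 340 and 293 CPM against 155 and 154 CPM (log2 fold change 1.003, unadjusted p = 0.00278, adjusted p = 0.155, edgeR), and in valve-like LECs its plates overlapped (-0.60, adjusted p = 0.951, edgeR). Over all LECs its log2 fold change was 0.16, and whether the classes differed was not tested. Itga11, the integrin chain for fibrillar collagen, was at 15.6 and 17.2 against 0.0787 and 0.401 CPM in the Tie1/-2 groups (log2 fold change -6.05, adjusted p = 0.0893, edgeR).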

How the data were processed

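Per the labels, plate reads were aligned with TopHat2 2.1.1 and counted with Subread featureCounts, and droplet reads were processed with Cell Ranger 2.1.1 (the matrix headers name 6.0.2). The authors deposited raw read counts per gene and well and raw UMI counts per gene and cell, on GRCm38 or mm10, and whether plate counting used strand is not given in the sources used here. Plate tables came in 2 layouts, 1 plate of each group in each. A well needed 1000 genes, and a cell 500 genes with mitochondrial UMIs no higher than 10%, to enter (3438 IgG and 2963 Ang2 Ab cells). Both sets were clustered without collagen genes (scanpy 1.11.5, Leiden resolution 1). No plate cluster was named capillary-like at that resolution, so those 1625 wells came from resolution 0.5, chosen after seeing the clusters, as was a naming limit on low depth. Doublets were scored with Scrublet, which called 0.611% and 0.0675% of cells and thus did not work as a caller, so none were removed and the highest 5% of scores were left out as an alternative.

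LEC counts were summed per plate and tested in 1 edgeR 4.0.16 quasi-likelihood fit of 8 plates (TMM, filterByExpr, group only), with Benjamini-Hochberg adjustment over all genes tested. The SE given with edgeR was the absolute log2 fold change divided by the square root of the test's F value. DESeq2 1.42.0 and limma 3.58.1 served as alternatives. Depth was 42337184 UMIs with IgG and 31720670 with Ang2 Ab, and counting intervals do not include variation between mice. The fits were tested on simulated counts in which only genes with many counts were changed, so changes in low-level genes were not covered. The droplet intervals were tested on simulated Poisson counts. The collagen genes and the gene lists were chosen with earlier results of these data known. Collagen genes given with values were those with at least 10 CPM in a group, those past 1.5-fold with Ang2 Ab and at most 3 of each other class by level per kb, and from the 2 lists those called and the 3 with the lowest p. Others are named where a count or a highest level called for it, chosen after their values were seen. Exon lengths were GENCODE exon unions. Settings tried were other normalization, filters, clustering, pairing, layout and left-out plates.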

Additional observations from a re-analysis of the deposited data

Results flagged for a closer look

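Col1a2 was uneven among the 4 control plates of both strains. It ranged from 8.60 to 71.8 CPM, with the next highest plate at 17.0 CPM, so the gap to the nearest plate was 0.867 of the whole range, over Dixon's 95% limit for 4 samples. The high plate was Tie1/-2 floxed plate 1. The summed non-collagen fibroblast markers had a gap of 0.910 of their range in the same plate, from 30.8 to 234 CPM with the next at 49.1 CPM. In all, 12 values were looked at this way, and chance flags about 1 in 20.

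Tll1 differed between the deletions by a direct test. Its log2 fold change with Tie1/-2 deletion minus that with Tie1 deletion was -5.61 (adjusted p = 0.0134, edgeR).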

How the results depend on the processing

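The number of collagen genes called depended mostly on the tool and the filter. Without a filter on low counts, edgeR called 2 of 43 in LECs with Tie1 deletion, 12 with Tie1/-2 deletion, 7 for the difference and 9 for the average, and in classes 1 (Tie1) and 6 (Tie1/-2) in capillary-like and 4 (Tie1/-2) in valve-like LECs, where 0 were called with the filter. DESeq2 called 8 with Tie1/-2 deletion, 2 for the difference and 5 for the average. Table layout as a term gave 1 (Col5a2) for Tie1/-2 deletion and 1 for the average, against 1.23% and 0.968% of all genes, and limma on mean CPM gave 1 (Col5a1) for Tie1/-2 deletion, against 1.75%. Leaving out 1 plate gave 0 to 2 calls for Tie1/-2 deletion (Col8a1 without either Tie1 floxed plate, with Col6a5 as well without the second, and Col5a1 without Tie1/-2–deleted plate 1, against 0.954% to 0.989% of all genes in these 3 fits), 0 to 1 for the average (Col6a5, without Tie1 floxed plate 2, against 0.479%) and 0 to 1 in collector-like LECs (Col5a1, without Tie1/-2–deleted plate 2, against 4.04%). With the replicate block 0 collagen genes were called in any contrast. The share of all genes called in that fit is not given here, so this count says nothing particular to collagen genes. Same-numbered plates of a strain shared the table layout, and in the Tie1 groups the sex, but no label ties them to an animal, litter or day, and their correlations were 0.112 and 0.0900. With Ang2 Ab, 1 gene was past the upper and 3 past the lower fold, 4 in all. There were 2 (2 and 0) without the top Scrublet scores, 7 (2 and 5 of 22) at a minimum of 50 UMIs, against 4.56% and 5.04% of all genes, and 1 (1 and 0) without the proliferating LECs.

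Some log2 fold changes changed sign, most of them small, but also that of Col3a1 with Tie1 deletion (1.24) and of Col1a2 with Tie1/-2 deletion (-2.18). With Tie1 deletion, Col3a1 was -0.15 by limma, Col1a1 0.0826 and Col1a2 0.41 when no cluster was removed, and Col8a1 0.18 with the replicate block, 1.13 with no cluster removed, 0.13 in wells under the fibroblast marker limit and 0.16 by limma. Leaving out 1 plate with Tie1 deletion gave -0.0624 to 0.33 for Col18a1, -0.82 to 0.25 for Col1a1, -0.54 to 0.0285 for Col1a2, -0.0713 to 0.36 for Col4a1, -0.35 to 0.45 for Col4a5, -1.001 to 0.11 for Col5a1, -0.77 to 0.0843 for Col5a2, -0.39 to 2.07 for Col6a1 and -0.95 to 1.59 for Col8a1. With Tie1/-2 deletion it gave -0.46 to 0.22 for Col18a1, -3.39 to 0.0285 for Col1a2 and -0.10 to 0.36 for Col4a5. The cause was not tested.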
